A study of Mus musculus with 3 samples.

Results

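The regulators examined were genes of sterol regulatory element-binding proteins (SREBPs), the carbohydrate response element-binding protein (ChREBP) and proteins acting with them. The cells were cultured beige adipocytes, heat-producing fat cells found among those of white fat. The 7 genes were Srebf1, Srebf2, Mlxipl, Mlx, Scap, Insig1 and Insig2, taken by symbol from 21031 protein-coding genes that RefSeq annotates on GRCm38.p6. Their peaks were all rows of both deposited peak lists that gave one of these symbols as the nearest gene. This yielded 11 of 16937 Foxp4 peaks and 10 of 17564 H3K27ac peaks.

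The lists came from chromatin immunoprecipitation with sequencing (ChIP-seq) of Foxp4, a forkhead family DNA-binding protein, and of H3K27ac, an acetylation of histone H3 found at active promoters and enhancers. The cells were C57BL/6 mouse stromal-vascular cells (SVF) of inguinal white fat (iWAT), differentiated in culture. They were grown in 20% serum for 3 days and then to confluence. Induction lasted 48 h in 10% serum, with insulin at 5 µg/ml and the thyroid hormone T3 at 50 nM. Troglitazone, a PPAR gamma agonist, was at 5 µM, dexamethasone at 1 µM and isobutylmethylxanthine at 0.5 mM. For a further 6 days the medium held troglitazone, T3 and insulin. All 3 libraries (input DNA, Foxp4 ChIP and H3K27ac ChIP) came from cells treated in this one way, with 1 library each, so there is no condition to compare and no replicate. All values below are therefore descriptions of 2 lists, with no test, and the input was not used here. Of 6 fat cell genes checked by symbol, 5 (Fabp4, Plin1, Lipe, Pparg and Cebpa) had an H3K27ac peak and Adipoq had none. Ucp1, Cidea, Prdm16 and Dio2, the genes checked for beige and brown fat, had 0 of 4 with an H3K27ac peak. Of all protein-coding genes, 37.5% had an H3K27ac peak assigned.

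SREBPs are membrane-bound transcription factors made as precursors in the endoplasmic reticulum. Scap escorts them to the Golgi apparatus, where proteases release the active part, and the sterol-sensing Insig proteins hold the complex of Scap and SREBP back when sterols are plentiful. SREBP-1, encoded by Srebf1, chiefly drives fatty acid synthesis, and SREBP-2, encoded by Srebf2, cholesterol synthesis and uptake. ChREBP, encoded by Mlxipl, responds to glucose and binds DNA together with its partner Mlx, and in fat cells it drives fatty acid synthesis from glucose. Srebf1 and Mlxipl each have alternative first exons. In mouse the SREBP-1c form starts downstream of SREBP-1a, and ChREBP-beta starts upstream of ChREBP-alpha.

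The promoters on which the results turn are printed first, as the 250 bases before the annotated start in the direction of transcription, from RefSeq on GRCm38.p6, the assembly of mm10. All 7 genes were found in that table, with 3 starts each for Srebf1 and Insig2, 2 each for Mlxipl and Scap and 1 each for the others. Capitals mark matches on either strand to TGTTTA (the forkhead core), ATCACCCCA (the sterol response element), CACGTG (the E-box), CCAAT and GGTTACT (a half-site of the liver X receptor elements known in the mouse SREBP-1c promoter). Both the third start of Srebf1 and the downstream start of Mlxipl are shown because a Foxp4 peak covers them. The upstream start of Mlxipl, for ChREBP-beta, is shown for contrast. Srebf2 has acetylated flanks and no Foxp4 peak, and Insig1 has the highest-scoring H3K27ac peak of the group.
Srebf1, the third start, chr11:60210472-60210721, minus strand: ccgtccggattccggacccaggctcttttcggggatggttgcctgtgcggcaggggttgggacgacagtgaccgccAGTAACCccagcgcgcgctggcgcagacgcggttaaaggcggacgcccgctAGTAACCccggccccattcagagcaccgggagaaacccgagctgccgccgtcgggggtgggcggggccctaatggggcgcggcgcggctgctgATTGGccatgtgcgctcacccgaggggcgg
Mlxipl, downstream start, chr5:135106641-135106890, plus strand: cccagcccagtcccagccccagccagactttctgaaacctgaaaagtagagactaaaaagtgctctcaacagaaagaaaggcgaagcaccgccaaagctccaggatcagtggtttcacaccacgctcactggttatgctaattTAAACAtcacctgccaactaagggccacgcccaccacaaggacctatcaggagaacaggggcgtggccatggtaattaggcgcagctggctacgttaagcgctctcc
Mlxipl, upstream start, chr5:135089640-135089889, plus strand: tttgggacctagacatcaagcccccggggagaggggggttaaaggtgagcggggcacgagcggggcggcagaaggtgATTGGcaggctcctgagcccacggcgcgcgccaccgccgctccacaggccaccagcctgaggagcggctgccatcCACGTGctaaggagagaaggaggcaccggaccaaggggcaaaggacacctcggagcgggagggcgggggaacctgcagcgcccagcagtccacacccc
Srebf2, chr15:82147019-82147268, plus strand: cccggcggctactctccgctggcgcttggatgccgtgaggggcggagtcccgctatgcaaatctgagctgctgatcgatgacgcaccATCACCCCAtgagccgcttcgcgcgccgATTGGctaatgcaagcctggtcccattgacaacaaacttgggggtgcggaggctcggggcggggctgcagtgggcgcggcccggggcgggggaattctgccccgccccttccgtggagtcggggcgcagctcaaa
Insig1, chr5:28071162-28071411, plus strand: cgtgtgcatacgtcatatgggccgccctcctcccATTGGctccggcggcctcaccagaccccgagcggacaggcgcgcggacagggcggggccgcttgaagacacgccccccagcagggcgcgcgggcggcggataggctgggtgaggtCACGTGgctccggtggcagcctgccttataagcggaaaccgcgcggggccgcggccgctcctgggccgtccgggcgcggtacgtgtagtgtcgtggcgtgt

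Among these regulators, Srebf1 and Mlxipl carried Foxp4 at a start site, next to acetylated chromatin. Foxp4 peaks of Insig1, Insig2 and Mlx lay farther away, Srebf2 had H3K27ac peaks alone, and Scap had no peak in either list. Foxp4 peaks were assigned to 5 of the 7 genes (Srebf1, Mlxipl, Mlx, Insig1 and Insig2), against 36.6% of all protein-coding genes. H3K27ac peaks were assigned to 5 as well (Srebf1, Srebf2, Mlxipl, Mlx and Insig1), against 37.5% of all. Peaks of both lists were assigned to 4, against 20.4%, and Scap was alone in having neither, which held for 46.3% of all genes. The genes were chosen with results of these lists known, so no more is read from these counts. A nearest gene is an assignment by distance and does not show which gene a bound site acts on.

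**Figure D1:**
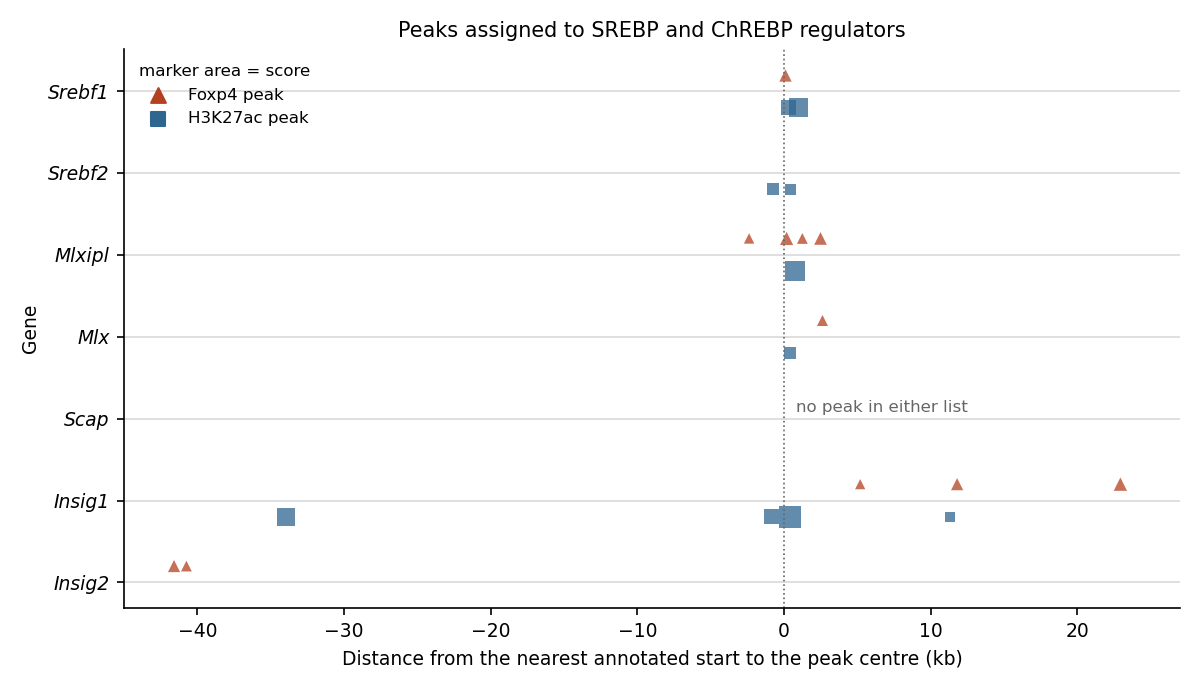
Each row is a gene, and each marker is a peak at the signed distance of its centre from the nearest annotated start (kb), with the marker area proportional to its deposited score. Foxp4 peaks (triangles) sit at the start for Srebf1 and Mlxipl and more than 40 kb upstream for Insig2. H3K27ac peaks (squares) cluster at starts, apart from 2 of the 4 at Insig1.

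A promoter peak was a peak with its centre within 1000 bp of an annotated start. Of the 7 regulators, 2 had a Foxp4 promoter peak (Srebf1 and Mlxipl), against 6.77% of protein-coding genes. An H3K27ac promoter peak was present at 5 (Srebf1, Srebf2, Mlxipl, Mlx and Insig1), against 26.0% of protein-coding genes. Srebf1 and Mlxipl were also the members with a Foxp4 peak overlapping an H3K27ac peak by at least 1 bp, which held for 5.36% of all genes. Of the 11 Foxp4 peaks of the group 3 overlapped H3K27ac, against 8.21% of the whole Foxp4 list, and 2 of the 10 H3K27ac peaks overlapped Foxp4, against 7.91% of that list. Peaks of 1 gene share a locus and are not independent of each other.

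Srebf1 spans chromosome 11, 60199084 to 60224186 (mm10), on the minus strand, and its single Foxp4 peak lay over the third start. The peak ran from 60209824 to 60210966, from 495 bp upstream to 647 bp downstream of that start, and its centre was 76 bp downstream. At 1143 bp it was wider than 99.8% of Foxp4 peaks. Its score of 35 was higher than that of 81.4% of the list and of 66.7% of the Foxp4 promoter peaks. All 250 printed bases of the Srebf1 promoter lay inside this peak, and none inside an H3K27ac peak. The acetylated region of score 83 began 212 bp downstream of the start and ended 1797 bp downstream, in the first intron of a longer transcript. It shared 436 bp with the Foxp4 peak, which is 38.1% of the Foxp4 peak. Of the H3K27ac list 91.8% scored lower, and of the H3K27ac promoter peaks 83.5%.

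A second H3K27ac peak of Srebf1, of score 50, lay at the second start, 10156 bp upstream of the third. It covered 116 to 560 bp downstream of that start (60220067 to 60220511) and was 9100 bp from the nearest Foxp4 peak. From the second and first starts of Srebf1 the nearest Foxp4 peak was 9661 and 11615 bp away, while the third start was covered. By the 1000 bp rule the H3K27ac promoter peak of Srebf1 is the one at the second start, since the centre of the larger one lay 1005 bp from the third. The printed promoter of the third start holds 2 GGTTACT matches, at 174 to 168 and 123 to 117 bp before the start, and a CCAAT match at 30 to 26 bp. GGTTACT was found in 1.88% of the 32851 promoter windows of the same length and CCAAT in 33.8%. No match to any of the forkhead motifs searched was present in this window, and the rest of the Foxp4 peak was not searched.

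Mlxipl spans chromosome 5, 135089890 to 135139768, on the plus strand, and had 4 Foxp4 peaks, a number reached by 3.29% of protein-coding genes. Of these, 3 lay within 2733 bp at the downstream start, that of ChREBP-alpha. The first ran from 135106841 to 135107308, from 50 bp upstream to 417 bp downstream of the start. Its score of 40 was higher than that of 84.6% of the Foxp4 list and 75.8% of the Foxp4 promoter peaks. The second (135108000 to 135108299, score 27) and the third (135109203 to 135109573, score 37, in a SINE repeat) lay in the first intron. The fourth, of score 25, was at 135087374 to 135087657, which is 2375 bp upstream of the ChREBP-beta start.

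The single H3K27ac peak of Mlxipl, of score 87, ran from 175 to 1312 bp downstream of the ChREBP-alpha start (135107066 to 135108203). It outscored 92.9% of its list and 85.4% of the H3K27ac promoter peaks. It overlapped the first Foxp4 peak by 243 bp and the second by 204 bp, and the third lay 999 bp beyond its end. The ChREBP-beta start lay 17001 bp upstream and the nearest H3K27ac peak was 17176 bp away from it. Acetylation and 3 of the 4 Foxp4 peaks therefore sat at 1 of the 2 starts of this gene. At least 3 Foxp4 peaks within 3000 bp of a start, counted over all starts of a gene, were found at 11 genes (0.0523% of protein-coding genes). The peaks of a gene need not lie at the same start. Of these genes, Mlxipl alone had 4. This window was chosen after the peaks of Mlxipl were seen, and the 4 peaks belong to 2 starts.

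The printed Mlxipl promoters differ in composition. The window of the downstream start had 53.2% G and C and 8 CpG dinucleotides, and that of the upstream start 69.2% and 18, against medians of 52.4% and 6 over all promoter windows. The downstream window holds 1 match to TGTTTA, on the minus strand at 107 to 102 bp before the start, and 12.0% of all windows hold one. That match lay upstream of the Foxp4 peak, which covers the last 50 bases of the window. The rest of that peak was not searched. The upstream window holds a CACGTG at 98 to 93 bp before the ChREBP-beta start, a motif of 6.02% of windows. Matches are letters in a window and not shown sites.

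Mlx, the obligate DNA-binding partner of ChREBP, had 1 peak in each list. Its H3K27ac peak (chromosome 11, 101087445 to 101087989) covered 155 to 699 bp downstream of the start. Its score was 29, with 16.0% of the list and 8.11% of the H3K27ac promoter peaks lower. Its Foxp4 peak of score 28 lay 1690 bp farther on, in the last intron (101089680 to 101090161), and did not overlap. Mlx is a short gene of 5501 bp, so this Foxp4 peak was only 2630 bp from the start. The promoter window of Mlx also holds 1 CACGTG, at 40 to 35 bp before the start.

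Srebf2 was acetylated on both sides of its start and had no Foxp4 peak. The H3K27ac peaks had scores of 33 (chromosome 15, 82146262 to 82146853) and 26 (82147348 to 82148063, annotated as a CpG island). They ended 416 bp before and began 79 bp after the start, which left a gap of 494 bp. These are low values within the list, where 69.7% and 89.6% of peaks scored higher. Of the H3K27ac promoter peaks, 13.7% and 4.88% scored lower. The nearest Foxp4 peak, of score 41, lay 19848 bp upstream at the promoter of the neighbouring gene Ccdc134. The gap between both acetylated peaks of Srebf2 holds all 250 printed bases, with 1 ATCACCCCA at 163 to 155 bp and a CCAAT at 135 to 131 bp before the start. ATCACCCCA occurred in 0.24% of all windows, and of the members' windows in that of Srebf2 alone. The same motif with a further C occurred in 0.0731% and in no window of the 7 genes.

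Insig1, which retains SREBP in the endoplasmic reticulum and is itself a target of SREBP, had the largest acetylated territory of the group. Its 4 H3K27ac peaks covered 3533 bp, and 4.35% of protein-coding genes had 4 or more. The highest, of score 114, ran from 23 bp before to 886 bp after the start (chromosome 5, 28071389 to 28072298). Of the list 97.5% scored lower, and of the H3K27ac promoter peaks 94.6%. A second of score 52 ended 420 bp before the start (28070192 to 28070992). The gap between both was 396 bp, and 23 of the 250 printed bases lay in the higher-scoring peak. Flanking peaks of this kind, 1 with its centre on each side of a start, were found at Insig1 and Srebf2, 2 of the 5 acetylated members. Of all genes with an H3K27ac promoter peak, 8.19% had a centre on each side. That share is counted over all starts of a gene, so the sides may belong to different starts.

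Foxp4 peaks of Insig1 lay downstream of its promoter. One of score 24 was in the last intron, 5203 bp from the start (28076428 to 28076803). One of score 34 lay beyond the gene at 11815 bp (28083076 to 28083379), and one of score 41, in a LINE repeat, at 22950 bp (28094136 to 28094589). The middle one came within 83 bp of an H3K27ac peak of score 23 (28082547 to 28082992) without touching it. The remaining H3K27ac peak of Insig1, of score 73, was intergenic, 33986 bp upstream (28036739 to 28038114), and 38313 bp from any Foxp4 peak. The strongest acetylation of Insig1 and its Foxp4 peaks were thus at separate places.

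Insig2, the paralogue of Insig1, had Foxp4 peaks as Insig1 did, but no H3K27ac peak. Both Foxp4 peaks were intergenic and 365 bp apart, at 40754 and 41599 bp upstream of the outermost start (chromosome 1, 121373124 to 121373562 and 121373928 to 121374448). Their scores were 27 and 34. The nearest H3K27ac peak to any of the 3 Insig2 starts was 98554 bp away, at another gene, Ccdc93. Scap, the escort protein itself, spans 51662 bp of chromosome 9 without a peak. The nearest H3K27ac peak to its starts lay 27304 bp away and belonged to Elp6. A Foxp4 peak of score 34 stood 3561 bp beyond its 3' end, in an exon of the neighbour Ptpn23 (110388510 to 110389091). A gene without a peak may still be bound or acetylated below what these single libraries, of unknown depth, could call.

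**Figure D2:**
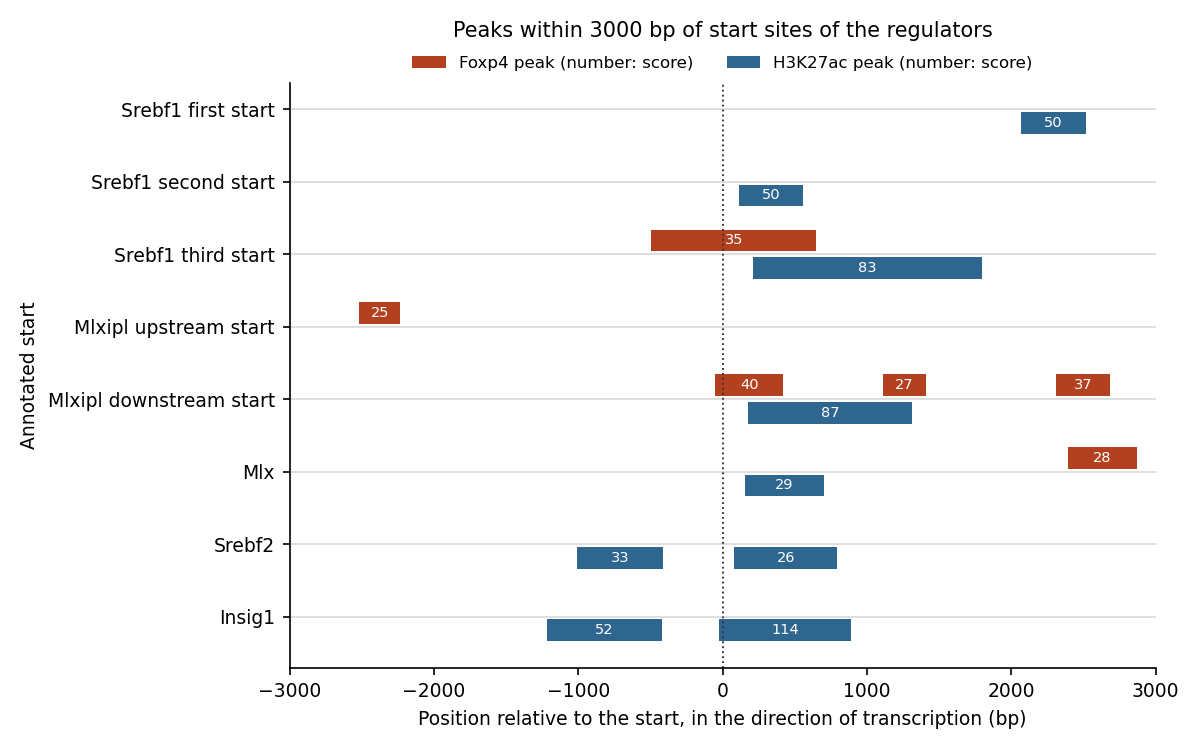
Bars are peaks drawn to scale against each annotated start (dotted line at 0, transcription to the right, axis in bp), with Foxp4 above and H3K27ac below each line and the score written inside. Foxp4 bars cross the third Srebf1 start and the downstream Mlxipl start, and the H3K27ac bars there begin 212 and 175 bp downstream. The Insig1 start alone lies inside an H3K27ac bar, and both Insig2 and Scap have no peak in this range and are not drawn.

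The position of the starts relative to the peaks is described next, in too few genes to compare the lists. Both members with a Foxp4 promoter peak had the start itself inside the Foxp4 peak, which held for 30.1% of all genes with such a peak. Of the 5 members with an H3K27ac promoter peak, Insig1 alone had its start inside an H3K27ac peak, against 35.9% of all genes with such a peak. At the second Srebf1 start, Mlx, the downstream Mlxipl start and the third Srebf1 start, the acetylated region began 116, 155, 175 and 212 bp downstream.

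Scores within each list place the group as follows. The 11 Foxp4 peaks had scores from 24 (Insig1) to 41 (Insig1) with a median of 34, and the whole list a median of 27. Of them, 5 stood at values that recur across the Foxp4 list (27, 34 and 41 among 21, 27, 34, 41, 49 and 57, which hold 73.1% of that list). These were the second Mlxipl peak, 2 peaks of Insig1 and both of Insig2. The promoter peaks of Srebf1 (35) and Mlxipl (40) were not at recurrent values. The 10 H3K27ac peaks had scores from 23 (Insig1) to 114 (Insig1) with a median of 51, and the whole list a median of 40. Of these 10, 7 were promoter peaks, and all H3K27ac promoter peaks of the list also had a median of 51. Insig1, Mlxipl and Srebf1 held the 4 highest values (114, 87, 83 and 73), and Srebf2 and Mlx had no peak above 33.

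**Figure D3:**
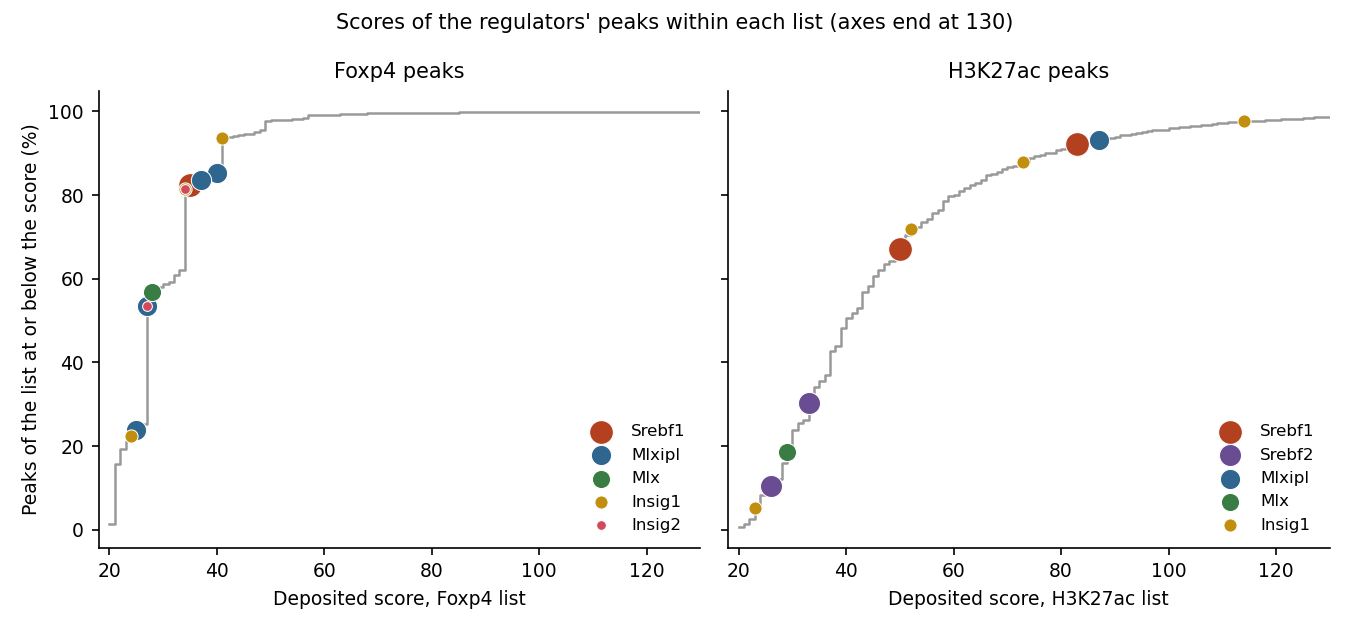
The grey step line gives the share of each list (%) at or below a deposited score, and dots mark the peaks of the regulators, with smaller dots drawn over larger ones where scores coincide. Foxp4 peaks of the group lie between 24 and 41, and H3K27ac peaks between 23 and 114, with Srebf2 and Mlx in the lower part of the H3K27ac list.

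Other genes of the pathway were taken from 5 lists of 85 genes in all, written with earlier results of these data known. Over the lists 14 genes (16.5%) had a Foxp4 promoter peak and 45 (52.9%) an H3K27ac promoter peak. Of all protein-coding genes, 6.77% had the former and 26.0% the latter, and these shares are the background for each list below. Since the lists were written that way, no more is read from these shares. Among proteases, degradation factors and other regulators of SREBP, 18 of 20 (90.0%) had an H3K27ac promoter peak and 2 (10.0%) a Foxp4 promoter peak. Those 2 were Trib1, a pseudokinase (score 76), and Aup1, a lipid droplet protein of the degradation machinery (34). The highest H3K27ac promoter scores were those of Aup1 (91), Ube2g2 (87), Crtc2 (83) and Syvn1 (81). The highest Foxp4 peaks elsewhere, of score 41, included those near Fbxw7 and Gsk3b. In all 5 lists, Foxp4 scores of 21, 27, 34, 41 and 57 stand at the recurrent values that hold 73.1% of the Foxp4 list. The SREBP protease gene Mbtps1 had an H3K27ac promoter peak (51), and Mbtps2 had no peak.

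Of 23 cholesterol pathway genes, 9 (39.1%) had an H3K27ac promoter peak, among them Sc5d (score 56) and Acat2 (score 43). A Foxp4 promoter peak was at 2 of the 23 (8.7%). At Stard4, a sterol transport protein, it had a score of 27 and did not overlap H3K27ac. Foxp4 peaks away from the promoter included those of Pmvk (34) and Dhcr7 (27). Of 18 fatty acid genes, 7 (38.9%) had an H3K27ac promoter peak and 3 (16.7%) a Foxp4 promoter peak. The Foxp4 peaks were those of Scd1 (57), Fads2 (47) and Acss2 (27). Of these, that of Scd1 overlapped an H3K27ac peak of score 22, and 2.56% of the H3K27ac list scored 22 or lower. Nr1h3, the liver X receptor alpha gene, and Gpam had H3K27ac promoter scores of 104 and 102, and Scd2 one of 54. The highest Foxp4 peaks of Gpam (57) and Acaca (34) lay 99150 and 67882 bp from a start, and that of Scd2 (32) lay 9401 bp upstream and overlapped H3K27ac.

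Of 15 glucose and fructose response genes, 5 (33.3%) had an H3K27ac promoter peak. The scores were 110 at Klf10, 55 at Tkt, 51 at both Txnip and Arrdc4, and 39 at Khk. Foxp4 promoter peaks were at 3 (20.0%), with scores of 28 at Tkfc, 26 at Klf10 and 22 at Arrdc4, and all 3 overlapped H3K27ac. Only at Arrdc4 was the overlap, of 405 bp, with an H3K27ac promoter peak. At Tkfc (252 bp) and Klf10 (31 bp) it was with peaks of scores 49 and 61, centred 1305 and 1130 bp from the start. The Klf10 promoter peak of score 110 did not overlap Foxp4. Fgf21 and G6pc had Foxp4 peaks of score 34 and Gpd1 one of 33 away from the promoter. Of 9 genes of the Max and Mlx partner network, 6 (66.7%) had an H3K27ac and 4 (44.4%) a Foxp4 promoter peak. The Foxp4 peaks were at Mxi1 (67 and 33, at different starts), Mxd4 (47), Mxd3 (34) and Myc (22). At Mxd4 and at one start of Mxi1 they overlapped H3K27ac. Mnt, Max and Mlxip, the gene of the ChREBP paralogue MondoA, had H3K27ac promoter scores of 100, 75 and 56, and Foxp4 peaks of 26, 21 and 27 away from the promoter.

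**Figure D4:**
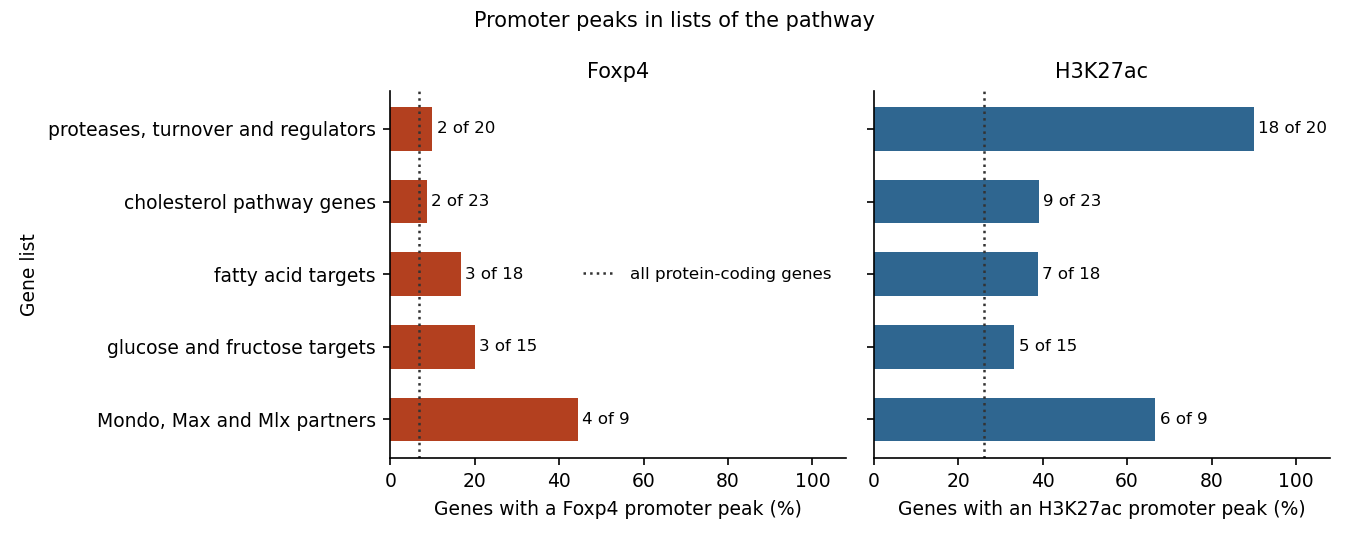
Bars give the share of each list's genes (%) with a promoter peak of Foxp4 (left) or H3K27ac (right), with the counts beside them, and the dotted line the share of all protein-coding genes (6.77% and 26.0%). The largest shares were 18 of 20 protease, turnover and regulator genes for H3K27ac and 4 of 9 Max and Mlx partner genes for Foxp4. The smallest were 5 of 15 glucose and fructose genes for H3K27ac and 2 of 23 cholesterol pathway genes for Foxp4.

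Neighbouring genes within 20 kb of a member also carried peaks. A Foxp4 promoter peak of Tbl2, of score 27, lay 9385 bp past the 3' end of Mlxipl. Mlx lies among acetylated neighbours, with H3K27ac peaks at Coasy (39 and 42), Naglu (34) and Psmc3ip (83), the last of them 2965 bp from the Mlx gene. No peak assigned to another gene lay inside one of the 7 genes.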

How the data were processed

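The authors deposited 1 narrowPeak list per ChIP library. Per the file headers, HOMER annotatePeaks.pl (mm10) added the nearest RefSeq start and the signed distance, another deposited value, from it to the peak centre. The submitters' processing notes name Bowtie2, Picard, SAMtools, MACS2 and deepTools 3.3.0. The deposited score is a whole number of at least 20. Its scale, the threshold and the role of the input were not given in the sources used here. Scores were compared within a list only, and depth is unknown. Per the labels' protocols all libraries share 1 antibody text, for Foxp4, and none names an H3K27ac antibody.

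A Foxp4 peak outside the autosomes and sex chromosomes was left out. Background shares used 21031 protein-coding genes with a curated transcript, matched by Entrez identifier. Overlap meant at least 1 shared bp. Motifs were counted on both strands in the 250 bases before each RefSeq start, with bases after it left out. The longer forkhead motif TGTTTAC was in 3.17% of windows and its variant with TGTTTGC in 4.3%, and neither was in a window of the 7 genes. The GC box GGGCGG was in 32.7%. The core TGTTTA, which is contained in the longer forkhead motif, and the liver X receptor half-site were added after the sequences were seen.

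Members, lists and rules were chosen with earlier results of these data known. Named pathway genes were those with a Foxp4 promoter peak, and up to 3 per list with the highest Foxp4 score elsewhere and the highest H3K27ac promoter score. Mbtps1 and Mbtps2 were added after their values were seen, and some genes the rule selects are not reported here. A score was called recurrent where 100 or more Foxp4 peaks had it, exceeding 3-fold the number at the score 1 below and at the score 1 above. Functions were tested on simulated data. Computation used pandas 2.3.3 and numpy 2.4.6, and figures matplotlib 3.10.9.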

Additional observations from a re-analysis of the deposited data

How the results depend on the processing

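Counts of the 7 regulators, of their peaks and of the pathway genes were recomputed under 38 alternatives, of which 29 stayed within 1.5 times the value given. With the authors' promoter class in place of distance, 1 member had a Foxp4 promoter peak (Srebf1, with the Mlxipl peak classed as an exon of a non-coding transcript) and 2 an H3K27ac promoter peak. With the lower-scoring 50% of H3K27ac peaks left out, 3 members had an assigned peak and 3 a promoter peak, since the peaks of Srebf2 and Mlx, of scores 26 to 33, were not in it. Counting Foxp4 peaks within 1000 bp of an H3K27ac peak gave 5 in place of 3. No H3K27ac peak of a member was covered by Foxp4 over at least 50% of its length or at its centre (0 by either rule, in place of 2). Pathway genes with a promoter peak in the higher-scoring 50% of each list numbered 9 for Foxp4 and 28 for H3K27ac. No paired analysis was possible because each antibody has 1 library. Depth is unknown, so a lower limit for detection cannot be given.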

Other observations

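Other genes with at least 3 Foxp4 peaks within 3000 bp of any of their starts were noticed after the data were examined. They were Maz, Map4, Mxi1, Tef, Tsc22d1, Hdac7, Mfsd12, Crebrf, Ptges2 and Zmynd8. Mxi1, a Max partner of the same extended network as Mlx, had scores of 33, 23 and 67, and none of them stood at a recurrent value. Its peaks lay at different starts. Map4, encoding a microtubule-associated protein, had the highest peak of these genes, with scores of 54, 47 and 74. Mfsd12 had 3 peaks of scores 34, 27 and 34, and all were at recurrent values. Among the regulators' promoter windows, CACGTG stood before 1 start each of Mlx, Insig1, Mlxipl and Scap. The share over all windows, 6.02%, counts windows and not genes, and Srebf1, Insig2, Mlxipl and Scap each have more than 1 window. The windows with the motif had 53.6% (Mlx), 72.8% (Insig1), 69.2% (Mlxipl) and 58.8% (Scap) G and C, against a median of 52.4% over all windows. Of the starts with the motif, that of Insig1 alone lay in an H3K27ac peak. The motif itself, at 101 to 96 bp before the Insig1 start, lay outside that peak, which began 23 bp before the start.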
